A study of Mus musculus with 2 samples.

Results

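The proteasome genes were read in 2 spatial transcriptomics sections of mouse cerebellum that carried a breast tumor. The members were every gene of the deposited feature table whose symbol begins with Psm, continues with a letter from a to f and a number, except Psmb8, Psmb9 and Psmb10, the catalytic subunits of the immunoproteasome. The rule found 41 of 19465 genes, and 40 of them encode a subunit, an assembly chaperone, an activator or an inhibitor of the proteasome. The remaining match, Psmc3ip, encodes a factor of meiotic recombination and is no part of the proteasome. The subunit genes Psmb1 and Psmd11 were not analysed here. All 41 genes passed the filter on low counts.

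Both sections came from untreated mice of the B6 strain with tumor organoids of genotype HP injected into the cerebellum, and there was no section without a tumor. HP stands for activating mutations in HER2 and PIK3CA that the tumor cells carry in both sections. According to the study's methods, the organoids were grown from mammary tumors started by a Cre-expressing adenovirus, were labelled with luciferase and selected as clones, and were injected into syngeneic, immunocompetent mice. The title of section 1 names the line HP-F1 +cre and that of section 2 names HP-B6 +cre, while the cell line label is the same for both. Age was not given in the labels, but the study's methods state an age for the mice to which the injection coordinates apply. The study's design text calls the sections biological replicates, so n = 2 throughout.

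The proteasome is the protease that destroys most short-lived and misfolded proteins of a cell after they have been tagged with ubiquitin. Its core particle is a barrel of alpha rings, which form the gate, and beta rings, of which 3 subunits (Psmb5, Psmb6 and Psmb7) cut the chain. The regulatory particle caps the barrel: its base holds ATPases that unfold the substrate, and its lid takes the ubiquitin off. Other activators can take the place of this cap, among them the interferon-inducible pair Psme1 and Psme2, and interferon gamma also replaces the 3 cutting subunits by Psmb8, Psmb9 and Psmb10, which favors peptides for major histocompatibility complex class I. When proteasome activity falls short, the transcription factor NRF1 (Nfe2l1) raises proteasome genes together, and its relative NRF2 (Nfe2l2) does so under oxidative stress. Both bind the antioxidant response element.

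Because these genes are known to be controlled together through such elements, the 250 bases upstream of each RefSeq start site (GRCm38.p6) were searched on both strands for its core, TGANNNNGC, and for the CCAAT box. Promoters were at hand for 35 of the 41 members, as 38 start sites. The core was found in 15 of these 38 start sites (39.5%), against 35.2% of all 32851 promoters, and CCAAT was found in 14 (36.8%), against 33.8%. Both shares were thus close to those of all promoters. Among the 13 members that differed between tumor and neural tissue and had a promoter, 4 held the core and 5 held CCAAT. Stretches of 60 bases are shown for 2 subunits that cut and for 2 ring subunits whose level was higher in tumor than in neural tissue, with the match to TGANNNNGC in capitals and each strand written as the gene reads.
Psmb5 (chr14:54618008-54618067, minus strand, match beginning 47 bases before the start site): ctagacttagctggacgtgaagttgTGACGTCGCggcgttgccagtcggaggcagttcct
Psmb6 (chr11:70525297-70525356, plus strand, 9 bases before): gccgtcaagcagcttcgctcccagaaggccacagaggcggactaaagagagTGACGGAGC
Psmb3 (chr11:97703374-97703433, plus strand, 10 bases before): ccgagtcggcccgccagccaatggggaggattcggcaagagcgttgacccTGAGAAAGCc
Psma4 (chr9:54950707-54950766, plus strand, 127 bases before): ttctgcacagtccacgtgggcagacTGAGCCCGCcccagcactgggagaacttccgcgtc
Distances are counted from 1 RefSeq start site, and a gene can have more than 1. For Psmb6 and Psma4 that site lies downstream of the gene's first base (chr11:70525324 and chr9:54950781). The Psmb6 match thus lies inside the gene, and the Psma4 match is closer to the gene's first base than to the site used. A match is a description of the letters and not evidence that a factor binds there.

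Each spot was placed on the tumor side or the neural side by its UMIs of tumor and stroma genes against neural and glial genes, and the 2 rows of spots on either side of the border were called the edge. The tumor region held 750 spots in section 1 and 941 in section 2, the edge 237 and 348, and the neural region 2324 and 2656. UMIs of each region and section were summed into 6 libraries of 4653004 to 39674709 UMIs and scaled to CPM (counts per 1000000) by TMM, a scaling that sets the bulk of genes level between libraries. Spots were deeper in tumor (median 54731 and 39884 UMIs) than in neural tissue (7485.5 and 9560.5). In the neural region, Pvalb was at 1510 and 1963 CPM and Calb1 at 229 and 623 CPM. The myelin gene Mbp was at 6167 and 4356 CPM there. These genes were among the neural and glial genes that placed the spots, so their high levels follow from how the region was drawn. The tumor regions of the sections were not alike. Summed over 8 tumor epithelium markers, section 2 tumor was at 11174 CPM and section 1 tumor at 67.7 CPM, against 163 and 24.7 CPM in neural tissue of these sections. In section 1 tumor, Krt19, Krt14, Krt7 and Cldn7 were near the floor, between 1.01 and 3.22 CPM. Krt19 and Cldn7 lay below neural tissue of this section (1.41 and 3.17 CPM), and Krt14 and Krt7 above it (1.63 and 2.16 CPM). Krt8, Erbb2, Cdh1 and Epcam were at 25.7, 18.2, 7.77 and 7.22 CPM there, above neural tissue (4.28, 5.11, 3.79 and 3.13 CPM). The 7 fibroblast markers summed to 63684 CPM in section 1 tumor and to 808 CPM in section 2. All of these markers except Pdgfra were among the genes that placed the spots on the tumor side. The epithelial sum of section 1 tumor was thus above its neural tissue but far below section 2 tumor. For this reason levels are given by section where a gene is described in full. Proliferation markers were at 602 and 575 CPM in the tumor regions, against 63.6 and 66.8 CPM in neural tissue. A spot holds several cells, so more cells of a type and more RNA per cell cannot be told apart.

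**Figure D1:**
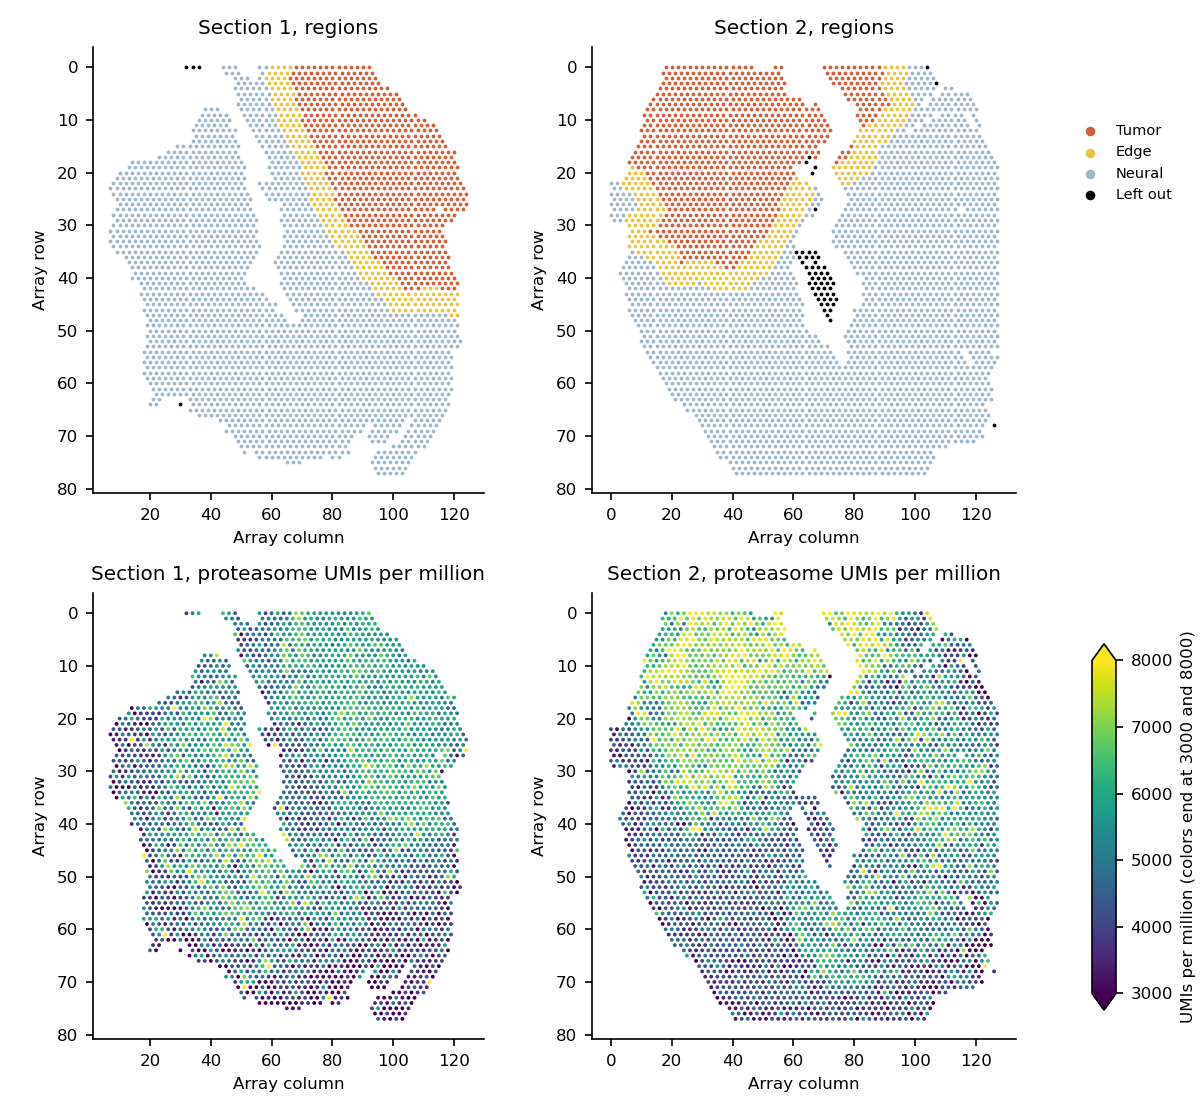
Top, spots of each section by region, plotted by array column and row. Bottom, UMIs of the 41 proteasome genes per 1000000 UMIs of each spot. The median was 5972 in section 1 tumor and 6954 in section 2 tumor, against 4879 and 4835 in the neural regions.

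The proteasome genes were higher in tumor than in neural tissue in both sections. Summed over all 41 genes, their level was 6856 CPM in tumor, 4783 CPM at the edge and 4442 CPM in neural tissue of section 1. The same sum was 8111, 5690.4 and 4843 CPM in section 2. Tumor was the highest and neural tissue the lowest region in both. Of all UMIs, the genes made up 0.601% and 0.702% in tumor and 0.513% and 0.493% in neural tissue. The median spot held 327.5 proteasome UMIs in section 1 tumor and 276 in section 2 tumor, against 37 and 48 in neural spots, which carry fewer UMIs of every kind. Almost all neural spots held such a UMI: 99.7% in section 1 and 100% in section 2. Fitted over both sections, the median log2 fold change of the 41 members in tumor against neural tissue was 0.55, beside -0.12 for all 19237 genes tested. It was 0.48 in section 1 alone and 0.60 in section 2 alone.

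In a quasi-likelihood test fitted on all genes with the section as a block (edgeR, Benjamini-Hochberg over all genes), 13 of the 41 members (31.7%) were higher in tumor at an adjusted p below 0.05, and 1, Psme2, was lower. Over all genes, 15.1% were called higher and 15.7% lower. Of genes with a mean of at least 20 CPM, a level that 37 members reached, 24.6% were called higher and 16.9% lower, beside 13 (35.1%) and 0 of the members. Both tumor libraries lay above both neural libraries for 32 of 41 members, as for 29.2% of all genes tested, and for 32 of 37 members (86.5%) at 20 CPM or more, as for 44.5% of all genes at that level. The order tumor above edge above neural held in both sections for 21 members (51.2%) and for 17.2% of all genes. The edge holds spots of both sides, so a gene higher in tumor tends to fall in between there by construction. This order is thus not separate from the difference of tumor and neural tissue. Of genes higher in tumor than in neural tissue in both sections, it held for 21 of 35 members and 3310 of 6636 of all genes. With 2 sections the fit had 2 residual degrees of freedom. The calls of Psma1, Psma3, Psma4, Psma5, Psmb3, Psmd9 and Psme4 were lost when libraries were scaled by their size alone, and all of these except Psma4 were lost without the section block.

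**Figure D2:**
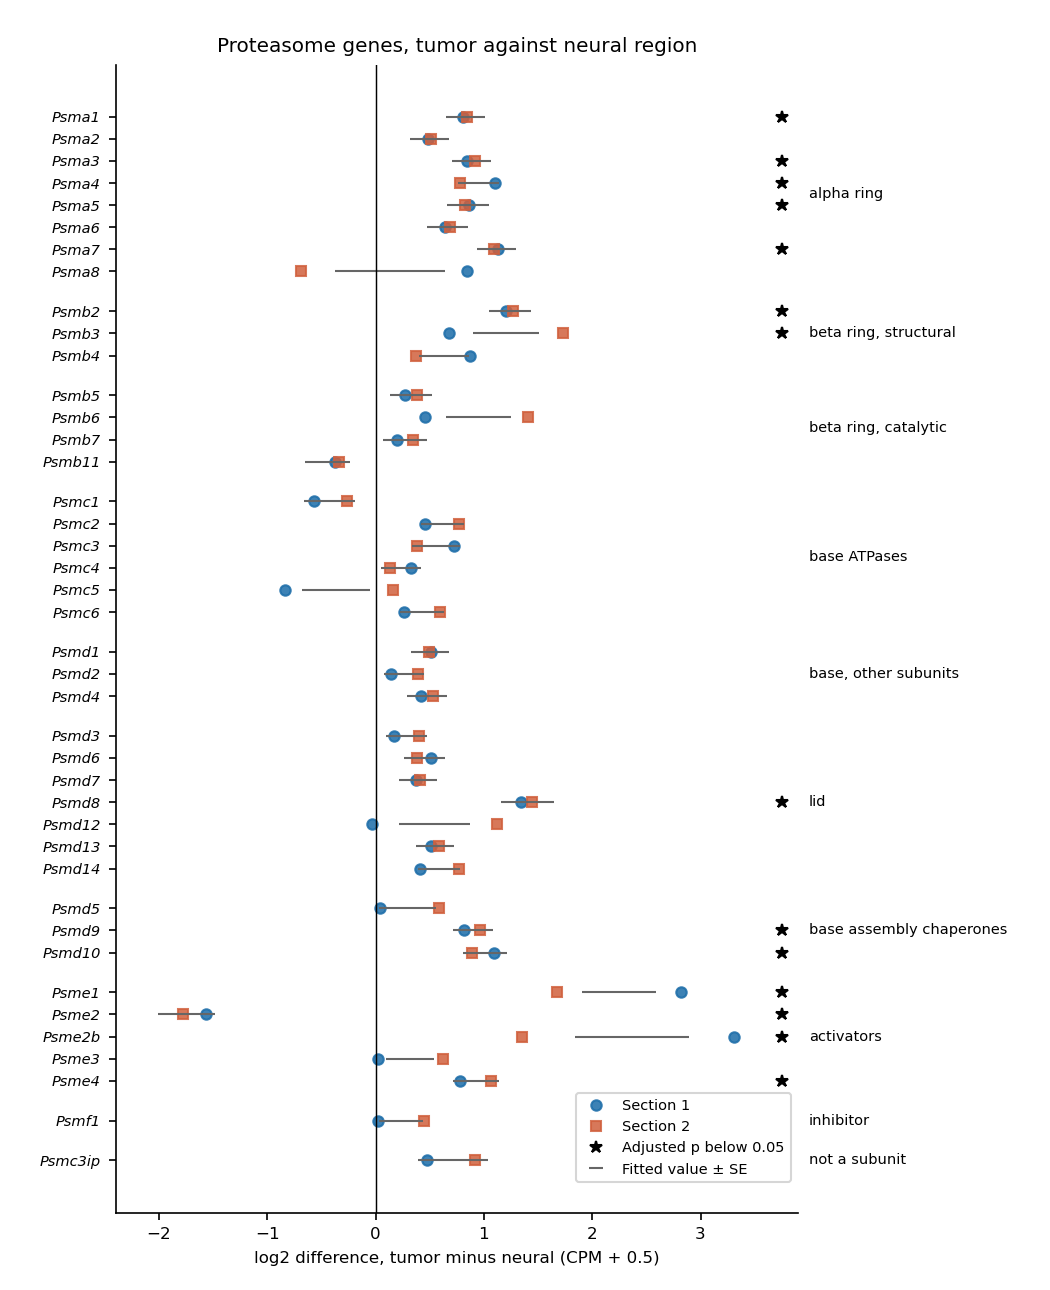
log2 difference between tumor and neural tissue for each of the 41 genes, grouped by role, in section 1 (circles) and section 2 (squares), with the fitted value ± SE as a line and a star where the adjusted p was below 0.05. Of the 41 genes, 35 lay above 0 in both sections, and Psme2, Psmb11 and Psmc1 lay below 0 in both. Of all 19237 genes tested, 6636 lay above 0 in both and 8564 below.

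The rings of the core particle held 7 of the 14 calls. Of the 8 alpha ring genes, 5 rose: Psma1, Psma3, Psma4, Psma5 and Psma7, with log2 fold changes from 0.83 to 1.12. Psma7 was at 251, 159 and 114 CPM in tumor, edge and neural tissue of section 1 and at 269, 171 and 126 CPM in section 2, a log2 fold change of 1.12 ± 0.18 (SE, adjusted p = 0.0134). Its regions kept 1 order in both sections and did not overlap. Psma2 and Psma6 had values of 0.50 and 0.66 and did not pass the edgeR test (adjusted p = 0.0986 and 0.0571), though Psma6 was called by DESeq2 and under RLE scaling. The testis form Psma8 lay near the floor, at 5.92, 3.79 and 3.09 CPM in tumor, edge and neural tissue of section 1 and 1.82, 3.63 and 3.23 CPM in section 2, with no common order.

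Of the structural beta ring genes, Psmb2 and Psmb3 rose, and Psmb4 did not pass the edgeR test (0.63, adjusted p = 0.102) but was called by DESeq2. Psmb2 was at 359, 226 and 155 CPM in tumor, edge and neural tissue of section 1 and 465, 257 and 192 CPM in section 2. This was a log2 fold change of 1.24 ± 0.19 (SE, adjusted p = 0.0124), nearly the same in section 1 (1.21) as in section 2 (1.27). Psmb3 was at 179.5, 132 and 112 CPM in section 1 and at 350.0, 182 and 105 CPM in section 2, so that its difference was 0.68 in section 1 and 1.73 in section 2. Its fitted value of 1.21 ± 0.31 (SE) was close to the threshold (adjusted p = 0.0427).

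None of the 4 member genes for subunits that cut passed the edgeR test in tumor against neural tissue. Psmb8, outside the members, did (2.89, adjusted p = 0.0476) and is described below. Of the 4 genes, 1, Psmb6, had an unadjusted p below 0.05, beside 8716 of all 19237 genes tested. DESeq2 called Psmb6, and 7259 of all genes. Psmb5, which cleaves after hydrophobic residues and is the main target of proteasome inhibitor drugs, was at 143, 109 and 118 CPM in tumor, edge and neural tissue of section 1 and 137, 127 and 105 CPM in section 2. Tumor was the highest region in both, with a log2 fold change of 0.33 ± 0.20 (SE, adjusted p = 0.244). Psmb6, which cleaves after acidic residues, was at 194, 209 and 141 CPM in section 1 and at 346, 215 and 130.0 CPM in section 2. The edge was the highest region of section 1 and tumor that of section 2, and the fitted value was 0.95 ± 0.30 (SE, adjusted p = 0.0735). Psmb7, which cleaves after basic residues, was at 247, 163 and 215 CPM in section 1 and at 309, 235 and 242 CPM in section 2. In both sections its lowest value was at the edge, and tumor stood 0.27 ± 0.20 above neural tissue on the log2 scale (SE, adjusted p = 0.329). Psmb11, the cutting subunit of the thymus, was near the floor, at 1.75, 1.70 and 2.43 CPM in tumor, edge and neural tissue of section 1 and at 1.88, 2.18 and 2.52 CPM in section 2.

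Fewer calls fell on the regulatory particle in the main fit, 1 of 16 genes against 7 of 15 in the core. Over all genes, 15.1% were called higher, and over genes with a mean of at least 20 CPM, 24.6%. DESeq2 called 10 core genes, and 4271 of all 19237 genes higher. With library size only, 2 core genes and 1 gene of base and lid were called, beside 1984 of all genes called higher. Without the section block these counts were 3, 1 and 2133. The gap in calls thus depended on the processing. It also depended on the set, which holds only genes that match the symbol rule. Sem1, a lid subunit outside the rule, was called higher (1.30, adjusted p = 0.0112). Adrm1, another subunit outside it, lay near the floor and was not called (-0.45, adjusted p = 0.222). Of the 16 genes of base and lid, only Psmd8, a lid subunit, was called by edgeR in tumor against neural tissue. An unadjusted p below 0.05 was found for 6 of them, beside 8716 of all 19237 genes. DESeq2 called 4 (Psmc2, Psmd8, Psmd13 and Psmd14). Psmd8 was at 188, 152 and 74.0 CPM in tumor, edge and neural tissue of section 1 and at 307, 155 and 112 CPM in section 2, a log2 fold change of 1.40 ± 0.25 (SE, adjusted p = 0.0166), and tumor, edge and neural tissue stood in this order in both sections. The other 6 lid genes had fitted values from 0.29 (Psmd3) to 0.59 (Psmd14, which takes the ubiquitin chain off the substrate), and none passed the test. The base subunits Psmd1, Psmd2 and Psmd4, of which Psmd4 is a ubiquitin receptor, were at 0.51, 0.27 and 0.48, also short of the threshold.

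None of the 6 ATPase genes of the base was called by edgeR, and their values ran in both directions. An unadjusted p below 0.05 was found for 1 (Psmc2), beside 8716 of all 19237 genes. Psmc2, Psmc3, Psmc4 and Psmc6 lay between 0.24 and 0.62 and were higher in tumor in both sections. Psmc1 was at 66.5, 55.7 and 98.7 CPM in tumor, edge and neural tissue of section 1 and at 59.7, 66.4 and 71.7 CPM in section 2. Neural tissue was its highest region in both, with a tumor against neural value of -0.43 ± 0.23 (SE, adjusted p = 0.216). Psmc5 was at 97.6, 70.4 and 174 CPM in section 1 and at 182, 127 and 163 CPM in section 2. Tumor stood below neural tissue in section 1 (-0.83) and above it in section 2 (0.16), and the fitted value was -0.36 ± 0.31 (SE, adjusted p = 0.398). These ATPases form 1 ring with a single copy of each. Their fitted values did not share a direction here, but as none was called, a true difference in direction is not shown.

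The median over the 15 core particle genes was 0.83 (0.81 in section 1, 0.78 in section 2), and over the 16 genes of base and lid it was 0.46 (0.39 and 0.45). A ratio between both sets does not depend on the scaling of the libraries. UMIs of core genes over UMIs of base and lid genes came to 1.13 in tumor, 1.04 at the edge and 0.838 in neural tissue of section 1, and to 1.04, 1.01 and 0.881 in section 2. The ratio was highest in tumor and lowest in neural tissue in both sections, by 0.43 and 0.24 on the log2 scale. This is a description of 2 sections with no test. The lid subunit Sem1 was not in the base and lid set. Its UMIs were 13482 in tumor and 3501 in neural tissue of section 1, and 16560 and 6366 in section 2. Its differences, 1.33 and 1.26 by section, exceeded the core medians, so counting it would narrow the gap in the ratio. The core set in turn leaves out Psmb8, Psmb9 and Psmb10. Their summed UMIs were 62567 in tumor and 2797 in neural tissue of section 1, and 8313 and 4022 in section 2. Counting these genes would widen the gap, mainly in section 1. The ratio with Sem1 or with these genes was not computed. With the total UMI count as the only scaling, the median of all genes shifted from -0.12 to -0.43 and every member with it: the core stayed above 0 (median 0.52), base and lid came to 0.15, the ATPases to 0.02 and the cutting subunits to -0.02, and 30 of 41 members instead of 37 had a positive value. As a share of all UMIs, base and lid genes of section 1 were lower in tumor (0.235%) than in neural tissue (0.252%), and in section 2 they were higher (0.305% against 0.237%). A change of scaling moves all genes alike, so by construction it leaves the members' distance from the median of all genes, 0.67, as it was.

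**Figure D3:**
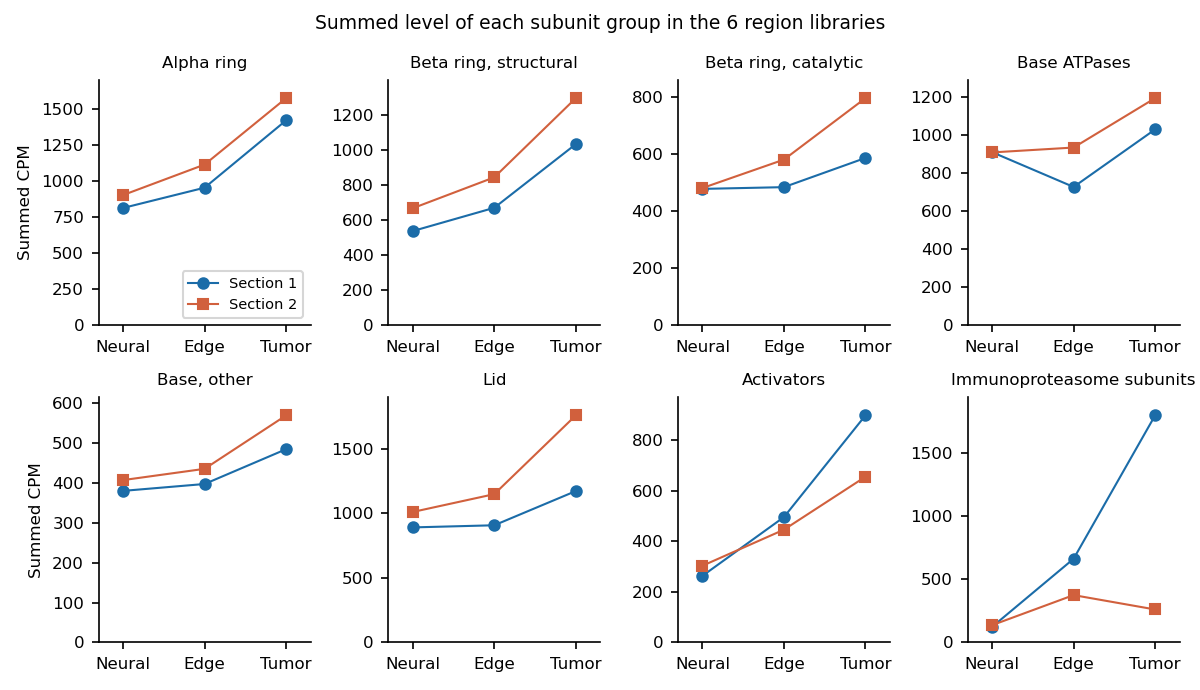
Summed TMM-scaled CPM of each subunit group in neural tissue, edge and tumor of section 1 (circles) and section 2 (squares). Sums of the alpha ring, both beta ring groups, other base subunits, lid and activators were lowest in neural tissue, intermediate at the edge and highest in tumor. This held in both sections. ATPases of section 1 were lowest at the edge. The immunoproteasome subunits reached 1799 CPM in section 1 tumor against 261 CPM in section 2 tumor.

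Of the 3 chaperones that assemble the base, Psmd9 and Psmd10 rose (0.90 and 1.01, adjusted p = 0.0246 and 0.0235) and Psmd5 did not pass the test (0.30, adjusted p = 0.403). Psmd10, also known as gankyrin, which binds the retinoblastoma protein, was at 60.8, 30.3 and 28.2 CPM in tumor, edge and neural tissue of section 1 and at 52.9, 35.0 and 28.3 CPM in section 2. Its tumor values stood apart from both edge and neural values. Psmf1, an inhibitor of the core particle, had a value of 0.23 (adjusted p = 0.405).

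Among the activators were the members with the highest and the lowest fitted values, though the lowest, on the row named Psme2, is uncertain in its identity. Psme1 was at 450.0, 226 and 63.2 CPM in tumor, edge and neural tissue of section 1 and at 263, 181 and 81.9 CPM in section 2. The fitted log2 fold change was 2.25 ± 0.34 (SE, adjusted p = 0.0114), larger in section 1 (2.82) than in section 2 (1.68). Its partner gene Psme2, which lies beside it (chr14:55587440-55591101, Psme1 at chr14:55578494-55581527, both GRCm38.p6), went the other way. It was at 5.92, 9.09 and 18.5 CPM in section 1 and at 6.50, 11.8 and 23.5 CPM in section 2, a change of -1.75 ± 0.26 (SE, adjusted p = 0.0111).

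Psme2b, a copy of Psme2 on another chromosome (chr11:48945345-48946410), was at 226, 93.4 and 22.4 CPM in tumor, edge and neural tissue of section 1 and at 71.5, 65.7 and 27.7 CPM in section 2. Its log2 fold change was 2.37 ± 0.53 (SE, adjusted p = 0.0321), 3.31 in section 1 and 1.35 in section 2. Because Psme2 and Psme2b are close to identical and their probes were not examined, which of both genes a UMI came from is uncertain. Summed, they were at 232, 102 and 40.9 CPM in section 1 and at 78.0, 77.5 and 51.2 CPM in section 2. Tumor and edge were thus nearly level in section 2, where Psme1 was at 263 and 181 CPM. Psme2b made up most of the sum in tumor, so the sum does not show which gene the UMIs came from. Psme4, an activator that works without ubiquitin, rose by 0.93 ± 0.21 (SE, adjusted p = 0.0320), and the nuclear activator gene Psme3 was at 0.32 (adjusted p = 0.306).

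Other values differed between the sections along with Psme1 and Psme2b. The 3 immunoproteasome genes summed to 1799, 663 and 123 CPM in tumor, edge and neural tissue of section 1 and to 261, 375 and 137 CPM in section 2, where the edge and not the tumor was highest. Psmb8 was called by edgeR in tumor against neural tissue (2.89, adjusted p = 0.0476), and Psmb9 and Psmb10 were called only by DESeq2 (edgeR values 2.78 and 1.72, adjusted p = 0.0799 and 0.156). Their log2 differences in section 1 were 4.19 for Psmb8, 4.27 for Psmb9 and 2.999 for Psmb10, and in section 2 they were 1.44, 0.99 and 0.16. All 6 interferon gamma response genes were higher in section 1 tumor than in section 2 tumor, with sums of 2238 and 417 CPM. The 6 T cell markers summed to 288 CPM in section 1 tumor and to 11.9 CPM in section 2 tumor. The 7 macrophage markers summed to 5474 and 1575 CPM and the 5 B and plasma cell markers to 132 and 10.4 CPM. Not all lists were higher in section 1: the 4 neutrophil markers summed to 75.2 and 75.2 CPM and the 5 vascular markers to 261 and 323 CPM. The part of any of these in the levels of Psme1 and Psme2b was not tested.

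In edge against neural tissue, 0 of 41 members were called in either direction by edgeR, where 2.87% of all genes were called higher and 2.47% lower, and the members' median was 0.11 against -0.03 for all genes. Without adjustment, 3 members were higher and 2 lower at p below 0.05, beside 2363 and 2716 of all 19237 genes. DESeq2 called Psme1 and Psme2b higher and Psme2 lower, beside 1808 and 1666 of all genes. The fitted values ran from 1.58 for Psme2b, 1.46 for Psme1, 0.77 for Psmd8 and 0.64 for Psmb6 down to -0.35 for Psmb11, -0.47 for Psmc1, -0.86 for Psmc5 and -1.01 for Psme2. All 8 alpha ring genes had positive values at the edge in both sections (median 0.33), whereas 3 of the 6 ATPases were below neural tissue in both and none was above it in both (median -0.01). Of all 19237 genes, 6862 were above neural tissue in both sections and 7408 below it in both.

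In tumor against edge, 0 members were called by edgeR, beside 0.463% of all genes called higher and 3.91% lower. The members' median was 0.48 against 0.01 for all genes. Of 41 members, 36 were higher in tumor than at the edge in both sections, as were 6648 of all 19237 genes. Without adjustment, 8 members were higher and 1 lower at p below 0.05, beside 2213 and 2699 of all 19237 genes. DESeq2 called Psmb2 and Psmd10 higher and no member lower, beside 951 and 1518 of all genes. The highest fitted values were 0.80 for Psmd10, 0.79 for Psme1 and Psme2b and 0.76 for Psmb2, and the lowest were 0.04 for Psmc1, -0.07 for Psma8, -0.09 for Psmb11 and -0.74 for Psme2. These 2 comparisons share the edge libraries, and each shares a region with the comparison of tumor and neural tissue.

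Counted in steps from spot to spot, the members' share of UMIs differed between rows of spots on either side of the tumor border, with no test. On the neural side next to the border it was 5339 UMIs per 1000000 in section 1 and 5226 in section 2. It was 5486 and 5601 in the outermost row of tumor, 6062 and 6744 in the third row, and 5934 and 7123 at 10 or more rows inside. Section 2 was thus highest in the middle of the tumor, whereas section 1 was highest at the fifth row (6258). Within neural tissue the share reached its lowest value 7 rows from the border in section 1 (4489) and 6 rows away in section 2 (4721), and 10 or more rows away it was 5248 and 4939. Deep inside the section 1 tumor, base and lid genes were at 2285 UMIs per 1000000, below the 2634 of the distant neural spots, whereas core genes were at 2658 against 2132. Psme1 was at 47.3 and 68.3 UMIs per 1000000 in the distant neural spots, at 249 and 155 in the neural row next to the border and at 394 and 228 deep inside the tumor. The immunoproteasome genes of section 2 were at 407 in the second row of tumor and at 219 deep inside, where macrophage markers were at 4541 and 987. In section 1 they were at 943 and 1623 in the same places, and macrophage markers at 5274 and 4877.

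**Figure D4:**
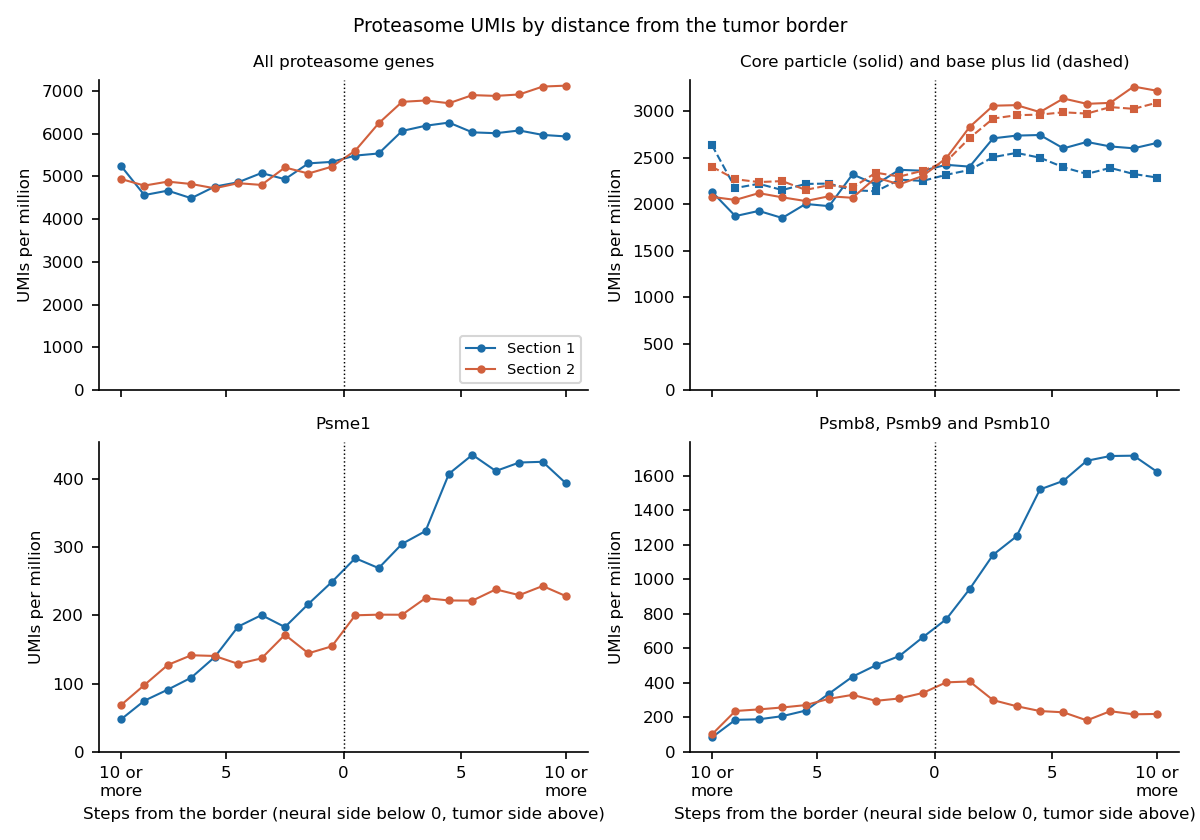
UMIs per 1000000 by rows of spots from the border, for all proteasome genes, for core particle (solid) against base and lid (dashed), for Psme1 and for the immunoproteasome genes, in both sections. The outermost points pool all spots 10 or more rows away. All proteasome genes were at 5339 and 5226 in the neural row beside the border and at 6062 and 6744 in the third row of tumor.

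The tumor difference of the members was also compared between the sections by chromosome. For each gene with a mean of at least 20 CPM, the tumor against neural difference of section 1 was subtracted from that of section 2. Of the 6 members above 0.5 on this log2 scale, 5 lay on chromosome 11: Psmd12 (1.16), Psmb3 (1.05), Psmc5 (0.99), Psmb6 (0.96) and Psme3 (0.61). The exception was Psmd5 (0.54), on chromosome 2. The other 3 members on chromosome 11 at this level were Psme4 (0.28), Psmd3 (0.22) and Psme2b (-1.95), whose UMIs cannot be told apart from those of Psme2 on chromosome 14. Psme1, on chromosome 14, also lay far in the other direction (-1.14). The share of all genes above 0.5 was not counted, so only medians stand beside the count of members. Whether members on chromosome 11 differ from its other genes was not tested. The median was 0.78 for the 8 members on chromosome 11 and 0.07 for the 29 elsewhere. Over all genes, the median was 0.28 on chromosome 11 (798 genes), 0.39 on chromosome 4, 0.31 on chromosome 5 and -0.40 on X, and between -0.14 and 0.01 on the other 16 chromosomes. In the neural regions, the medians of section 2 minus section 1 ranged from 0.16 to 0.27 over all chromosomes. Psmd12, a lid subunit (chr11:107479528-107498036), had the highest value of the members: it was at 227 and 233 CPM in tumor and neural tissue of section 1, and at 539.8 and 248 CPM in section 2. With 1 tumor region in each section, the difference could not be tested, and the tumor line, the cell makeup of the tumor and the section cannot be told apart.

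**Figure D5:**
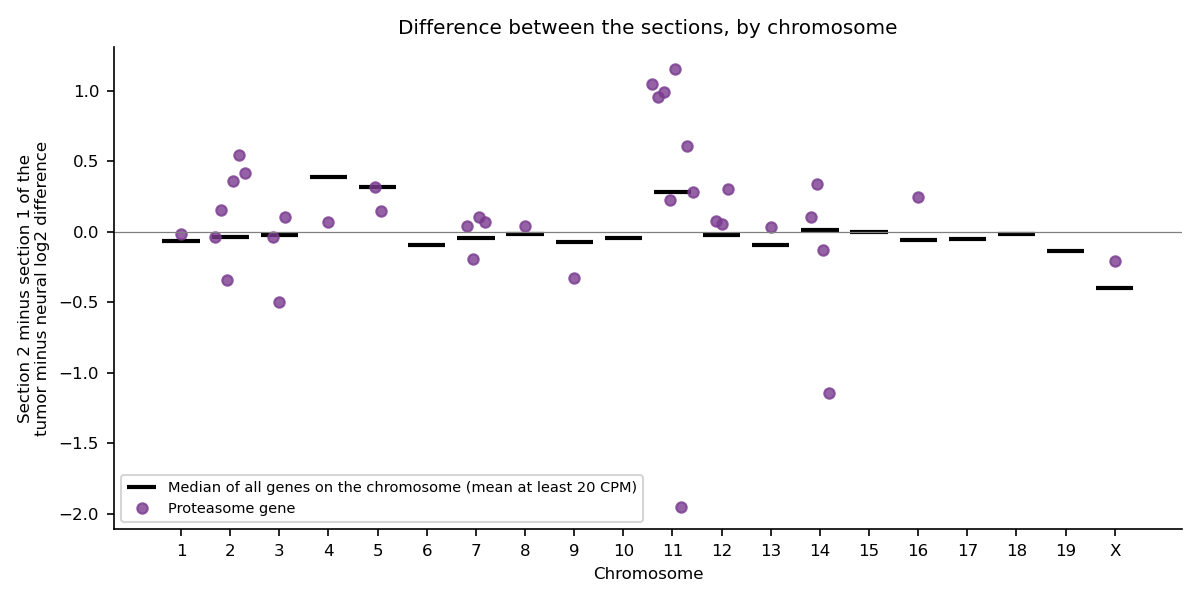
Difference between section 2 and section 1 in the tumor minus neural log2 difference, by chromosome. Bars are medians over all genes with a mean of at least 20 CPM and points are proteasome genes at that level. The median over all genes was 0.28 on chromosome 11, 0.39 on chromosome 4 and 0.31 on chromosome 5.

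Genes around the proteasome were read in the same fit. There, 15.1% of all genes and 24.6% of genes with a mean of at least 20 CPM were called higher in tumor. Of the 4 regulators of proteasome genes, Nfe2l2 (2.14, adjusted p = 0.00418) and Ddi2, the protease that releases NRF1 from the endoplasmic reticulum (1.44, adjusted p = 0.00657; 1.49 and 1.38 by section), rose in tumor, and Nfe2l1 and Ngly1 did not pass the test (0.38 and 0.37). Nfe2l2 was at 324, 179 and 66.9 CPM in tumor, edge and neural tissue of section 1 and at 344, 224 and 86.2 CPM in section 2. Nfe2l1 itself was lower in tumor than in neural tissue of section 1 (255.6 and 347.6 CPM) and higher in section 2 (707 and 309 CPM). Of 4 chaperones that assemble the core, Psmg1 rose (0.85, adjusted p = 0.0332, 0.87 and 0.79 by section). Psmg3 was called only by DESeq2, and Psmg4 only by DESeq2 and under RLE scaling. Of 5 other subunits and deubiquitinases, Sem1, the smallest lid subunit, rose (1.30, adjusted p = 0.0112), and Usp14 and Uchl5, which trim ubiquitin chains on the proteasome, were at 0.01 and -0.36. None of 4 genes for ubiquitin and its activation passed the edgeR test as set up here. Of them, 1, Uba1, had an unadjusted p below 0.05, beside 8716 of all 19237 genes. Uba1, the enzyme that activates ubiquitin, was at 0.75 (adjusted p = 0.0506) and was called by DESeq2, under RLE scaling, with an edge of 1 or 3 steps and with the score of the single spot. Of 8 shuttles and VCP partners, Rad23b, which carries ubiquitin-tagged proteins to the proteasome, and Vcp, which pulls proteins out of membranes and complexes, rose (1.34 and 0.93, adjusted p = 0.0143 and 0.0439). By section, Rad23b was at 1.11 and 1.54 and Vcp at 0.63 and 1.23. Nploc4, also of this list, was at 1.05 (adjusted p = 0.0503) and was called by DESeq2 and under RLE scaling. The calls of Psmg1, Vcp and Psmb8 were not kept under every alternative. All 3 were lost without the section block and with 1 threshold over both sections, those of Psmg1 and Vcp also with scaling by library size, that of Vcp also with an edge of 1 step, and that of Psmb8 also with an edge of 3 steps and with the score of the single spot. Ubqln2, another shuttle, fell by 1.01 (adjusted p = 0.0283).

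The members were also set against their own mean over the 6 libraries. Against the mean of the standardized log2 CPM of the 37 members at 20 CPM or more, 18 members (48.6%) had a Pearson correlation above 0.9, as did 15.4% of all genes at this level, and each member is itself part of the mean. The highest were Psma2 (0.996) and Psmc2 (0.991), and Psmc1 was the only member below 0 (-0.42). Psmc5 (0.21), Psmd2 (0.43) and Psme2b (0.56) followed the mean least among the rest. Of all other genes at this level, Pcyox1 (0.999), Fam53a (0.998), Rabggtb (0.997), Gmds (0.997) and Ogg1 (0.997) were most like the mean. The 6 libraries come from 2 sections and share their depth and spots, so these values are a description.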

How the data were processed

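Formalin-fixed sections, 5 µm thick, of 2 mice were read with a probe-based spatial assay (Visium CytAssist). The authors deposited raw UMI counts per gene and spot, made with Space Ranger 2.1.1 on mm10 per the labels. UMIs count probes, so levels of different genes were not ranked. Spots with at least 500 UMIs and 10 genes were kept (3315 and 3999 of 3406 and 4017 under tissue, 63986887 and 71878333 UMIs in all). The sections share 3096 barcodes, which are positions of the array and not cells. A spot was scored as log2 of tumor and stroma UMIs over neural UMIs (18 and 21 genes, none a member, 1 added to each sum) with its up to 6 neighbors, and Otsu's threshold split each section. Patches under 50 spots (4 and 54 spots) were left out. The study's own clusters are not used here.

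The 6 summed libraries were fitted with edgeR 4.0.16 (TMM, quasi-likelihood, section as a block, 19237 genes), and per-section differences used CPM with 0.5 added. The fitting script was tested on simulated data with larger changes than most members had and less spread than was fitted here. That test therefore does not show how well changes of the members' size are found. DESeq2 1.42.0 was an alternative. Spots of a section are not replicates. P-values measure how region differences varied between the 2 sections, with information on the spread shared across genes. The section block took out differences common to all regions of a section. The members and lists were chosen with earlier results of these data known. Any member could be named; values in all libraries were given for Psmb5, Psmb6, Psmb7 and the 4 highest and 4 lowest members of each comparison, and Psma7, Psmb3, Psmd12 and Nfe2l2 were added after their values were seen. The 5 genes most like the members were taken by Pearson correlation. Gene positions and promoters are from RefSeq (GRCm38.p6), matched by symbol for 19106 of 19465 genes.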

Additional observations from a re-analysis of the deposited data

How the results depend on the processing

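In tumor against neural tissue, 14 members were called, and the count was 12 to 20 under DESeq2, RLE scaling, the other edge widths, region scores, thresholds and filters. It was 7 (6 higher, 1 lower) when libraries were scaled by their size alone and 8 (7 and 1) with no replicate block. Of all 19237 genes, 5922 were called in the main fit, 7259 by DESeq2, 6866 with library size only and 4610 with no replicate block. Psmb3 lost its call under 4 alternatives and Psma5 under 3, whereas Psma7, Psmb2, Psmd8, Psmd10, Psme1, Psme2 and Psme2b kept theirs under every alternative with a test. The members' median of 0.55 was 0.66 under DESeq2 and RLE, 0.24 with library size only and 2.48 as raw UMIs per spot, which carries the greater depth of tumor spots; left out by section, it was 0.48 to 0.60. In edge against neural tissue, DESeq2 called 3 members, beside 3474 of all genes, and every other alternative called 0 members. The members' median of 0.11 was 0.96 as raw UMIs per spot, 0.036 and 0.20 with an edge of 1 and 3 steps, 0.20 with the score of the single spot and 0.023 to 0.19 with a section left out. In tumor against edge, DESeq2 called 2 members, beside 2469 of all genes, and the other alternatives called 0 members. The members' median of 0.48 was 0.46 with 1 threshold over both sections, 0.55 under DESeq2 and RLE, 0.56 and 0.40 with an edge of 1 and 3 steps, 0.41 with the score of the single spot, 0.19 with library size only, 1.55 as raw UMIs per spot and 0.43 to 0.45 with a section left out. With library size only, Psmb7 in tumor against neural tissue turned to -0.045, and Psmb5 and Psmc1 in tumor against edge to -0.033 and -0.24. In tumor against edge, Psma8 turned to 0.065 with no replicate block and Psmb11 to 0.088 with an edge of 1 step. Psme2 in tumor against neural tissue was 0.18 as raw UMIs per spot. Only the call of Psme2 was among these reversals, and the others had no call. A fit without a section has no residual degrees of freedom, so those values have no test. A gene that missed the threshold is not shown to be equal between regions.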
